A study of Homo sapiens with 14 samples.

Results

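Solute carriers are membrane proteins that move amino acids, sugars, ions, metals, nucleosides and metabolites across the plasma membrane and the membranes of organelles. The genes described here were chosen by symbol and by measured level: every gene whose symbol has the form SLC, a family number, A and a member number, without SLC40A1, SLC11A2 and SLC2A1, and with at least 200 counts in each of the 4 total mRNA libraries. That left 123 of 331 such symbols, in a count table of 58434 symbols. Another 208 solute carriers were below the floor, and 50 of these had no read in any library.

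The series used MDA-MB-231 cells, a line derived from a triple-negative breast cancer, carrying a doxycycline-inducible lentiviral shRNA from the TRIPZ vector with a red fluorescent reporter. One line expressed a non-silencing shRNA (shNSi) and the other an shRNA against DAP5 (shDAP5), the protein encoded by EIF4G2, and both were given doxycycline at 1 µg/ml for 6 days. Extracts of 2 cultures per line were sequenced as total mRNA and as light and heavy polysome pools. A moderate pool was sequenced for shNSi alone, so that 14 libraries formed 7 groups of 2. Each arm is a stable line with a single named shRNA, so the line and the silencing cannot be told apart, and the shDAP5 light libraries carry a sample code that resembles that of the shNSi moderate pool. The shDAP5 total libraries are titled as total polysome and are taken as total mRNA.

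Amino acid transporters at the cell surface supply both building blocks and the signals that amino acids send to growth control, and several work as pairs of a heavy and a light chain. Mitochondrial carriers of the SLC25 family exchange nucleotides, phosphate, citrate and amino acids across the inner mitochondrial membrane. DAP5 is related to the translation initiation factor eIF4G but lacks the region that binds the cap-binding protein, and it serves in translation of a subset of mRNAs.

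The libraries held from 25899838 to 30795910 counted reads. The trimmed mean method (TMM) scaled the shNSi heavy libraries by factors of 0.763 and 0.703, and those of shDAP5 by 1.04 and 0.932. Levels below are in CPM, the count relative to library size, scaled over all 14 libraries. The fitted log2 changes of heavy polysome mRNA scale the 4 heavy libraries alone and lie 0.18 above the log2 ratio of the mean CPM at the median gene, so a gene with equal CPM in both lines has a fitted change slightly above 0. With 2 against 2 libraries an exact permutation test cannot give a p below 0.333, and all calls here come from fits across all genes.

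EIF4G2 mRNA, the target of the shRNA, stood at 1391 and 1358 CPM in total mRNA of the shNSi cultures and at 525 and 730.0 CPM in the shDAP5 cultures. Both shDAP5 values were below both shNSi values, with a log2 difference of −1.15. In heavy polysomes EIF4G2 had 1495 and 1394 CPM in shNSi and 709 and 697 CPM in shDAP5 (fitted log2 change −0.86 ± 0.38 SE, adjusted p = 0.0691). In light polysomes it had 1558 and 1561 CPM in shNSi and 565 and 679.7 CPM in shDAP5 (−1.33 ± 0.32, adjusted p = 0.43), and the shNSi moderate pool had 2436 and 1774 CPM. The separation of the lines in every pool did not reach the threshold of 0.05 in either polysome fit. Vimentin (VIM) and CD44, markers of this mesenchymal line, were abundant in total mRNA, with 113080 to 152903 and 5344 to 17524 counts per library. Both differed between the lines. CD44 had 485 and 623 CPM in total mRNA of shNSi and 187 and 308 CPM in shDAP5 (log2 difference −1.19), and VIM had 5074 and 5230 CPM against 3958 and 4038 CPM (−0.37). In heavy polysomes CD44 fell with a log2 change of −1.94 ± 0.39 (adjusted p = 3.22e-05) and VIM with −1.35 ± 0.40 (adjusted p = 0.00559). The estrogen receptor (ESR1) had at most 16 counts and E-cadherin (CDH1) at most 8 in any library, and the progesterone receptor (PGR) had none. GATA3, a luminal marker, was present at 269 to 422 counts.

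The floor on total mRNA applied alike to both lines, so total mRNA of the members is given as a description with no test. Just inside it were SLC29A3 (lowest total count 202), SLC25A42 (205), SLC2A8 (212) and SLC16A7 (212). Just outside were SLC13A4 (198), SLC1A4 (177) and SLC6A9 (177). SLC16A1, a lactate carrier, and SLC19A1, the reduced folate carrier, had lowest total counts of 22 and 61. SLC12A2, which brings chloride into cells, had 142. SLC25A6, an adenine nucleotide carrier, had 0 counts in all libraries. Whether its mRNA was absent or its reads were not counted cannot be told, since the annotation and the counting settings are not stated. Per kilobase of coding sequence, the mean level in total mRNA was 967 CPM for SLC25A5 and 887 CPM for SLC25A3, the mitochondrial carriers of adenine nucleotides and phosphate. It was 443 CPM for SLC7A5, the light chain that imports leucine and other large neutral amino acids, and 202 CPM for SLC3A2, the heavy chain that SLC7A5 pairs with. The median log2 difference of total mRNA, shDAP5 less shNSi, was −0.19 over the members and −0.03 over the 9495 genes at the same floor. Both shDAP5 cultures were below both shNSi cultures for 50 members (40.7%, against 23.8% of genes at that floor) and above both for 6 (4.88%, against 17.8%). SLC7A5 was at 712 and 1072 CPM in shNSi and at 323 and 587 CPM in shDAP5 total mRNA. SLC30A1, which exports zinc from the cell, went the other way, with 13 and 28.8 CPM in shNSi and 30 and 33.1 CPM in shDAP5.

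Heavy polysomes carry mRNAs with many ribosomes, and their comparison asks which mRNAs differ in this pool between silenced and control cells. All 123 members passed the filter, and 34 were lower in shDAP5 and 9 were higher at an adjusted p under 0.05, where 16.7% of all 14270 genes tested were lower and 14.2% higher. That is 27.6% and 7.32% of the members, beside 20.6% and 15.3% of the genes at the same floor. The median log2 change was −0.27 over the members and 0.09 over all genes tested. All 34 lower members had both shDAP5 libraries below both shNSi libraries in CPM, and 8 of the 9 higher members had both above; in SLC25A28 the lines overlapped. These are the same 4 libraries that gave the calls. Called or not, 53.7% of the members had both shDAP5 libraries below, beside 43.1% of genes at the same floor. Both were above for 17.1% and 27.3%. Among the lower members, 33 also had a log2 difference of total mRNA below 0, with a median of −0.38 over the 34. That median was −0.19 over all members and −0.03 over genes at the floor, and the share among all genes called lower is not given here.

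The counts by family role, taken from the SLC family number, are given as a description. The roles also differ in coding length, with medians of 964.5 nucleotides for mitochondrial carriers, 1554 for amino acid transporters and 2247 for inorganic ion carriers, and a difference between roles was not tested. Of 18 members in amino acid transporter families, 9 were lower and none higher (median −0.88), and of 14 carriers of inorganic ions 7 were lower and none higher (−0.85). Of 4 in the monocarboxylate family 3 were lower (−0.96), and of 16 zinc transporters 4 were lower and 1 higher (−0.27). Of 32 mitochondrial carriers 3 were lower and 5 higher (0.51). The fatty acid and acetyl-CoA families had 1 lower of 3 (−0.68), the vitamin and choline families 1 lower of 6 (−0.32), and the nucleosides 1 lower and 1 higher of 3 (0.12). Of 5 members of the nucleotide sugar family edgeR, DESeq2 and limma called 0 (1 at an unadjusted p under 0.05 by edgeR), with a median of −0.40. The sugar and polyol families had 3 lower and 1 higher of 8, with a median of −0.11 that became 0.13 when libraries were scaled by their size alone. The remaining families had 2 lower and 1 higher of 14, with a median of 0.01 that became −0.07 with DESeq2 size factors.

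**Figure D1:**
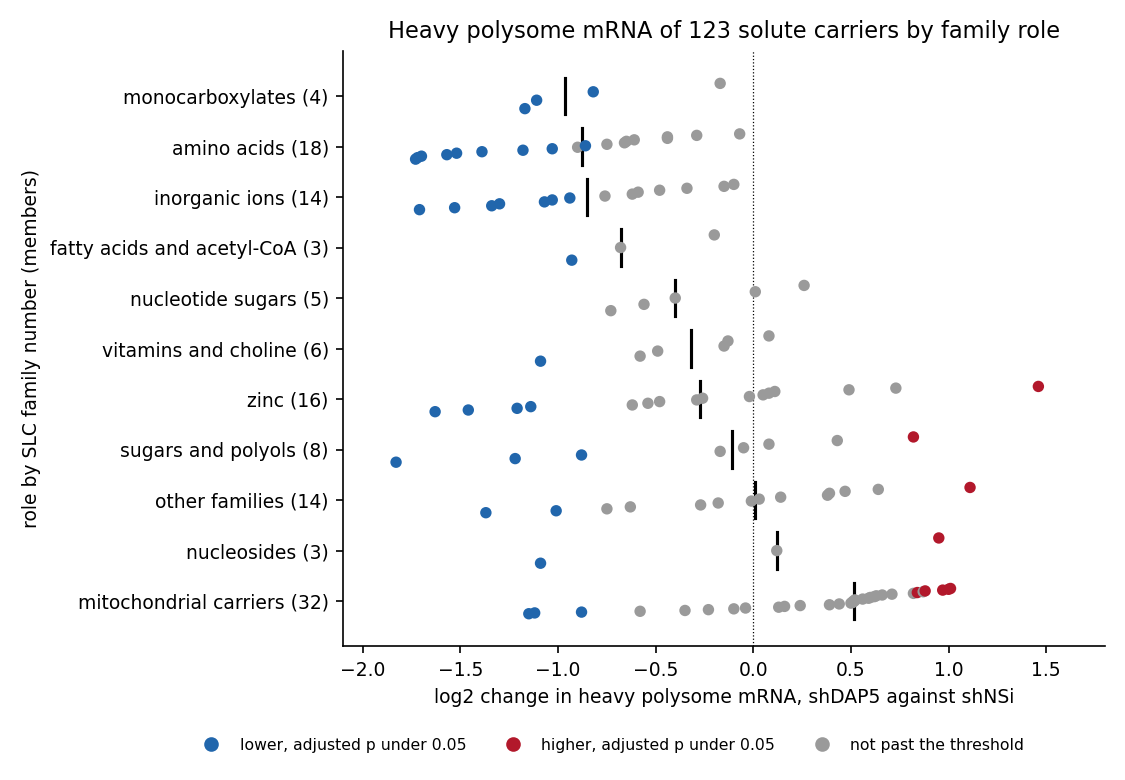
Fitted log2 change in heavy polysome mRNA of each of the 123 members, by family role, with a bar at the median of each role. With scaling by library size alone the median of the sugars and polyols was 0.13 and with DESeq2 size factors that of the other families was −0.07.

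These counts depended on the scaling and on single libraries. Scaling by library size alone moved the median of all genes from 0.09 to 0.34 and gave 15 members lower and 12 higher (7.98% and 17.5% of all genes tested), while the median of the members relative to all genes was −0.36 with TMM and −0.38 with library size. Without shNSi replicate 1 the counts were 37 lower and 2 higher, beside 16.7% and 7.07% of all genes tested. Without shNSi replicate 2 they were 14 and 2 (8.42% and 5.66%), and without shDAP5 replicate 1 they were 18 and 4 (12.2% and 7.64%). Without shDAP5 replicate 2 edgeR called 0 members in either direction (38 at an unadjusted p under 0.05), and it called 1 gene lower and 1 higher of all tested. With the shNSi moderate pool in place of the heavy pool, edgeR called 0 members (13 at an unadjusted p under 0.05). Of all 14539 genes tested in that fit it called 0.165% lower and 0.179% higher. There 27 of the 34 lower members still had a change below 0, and 6 of the higher members still had one above 0. Whether the position of the pools on the gradient took part in these changes was not tested.

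**Figure D2:**
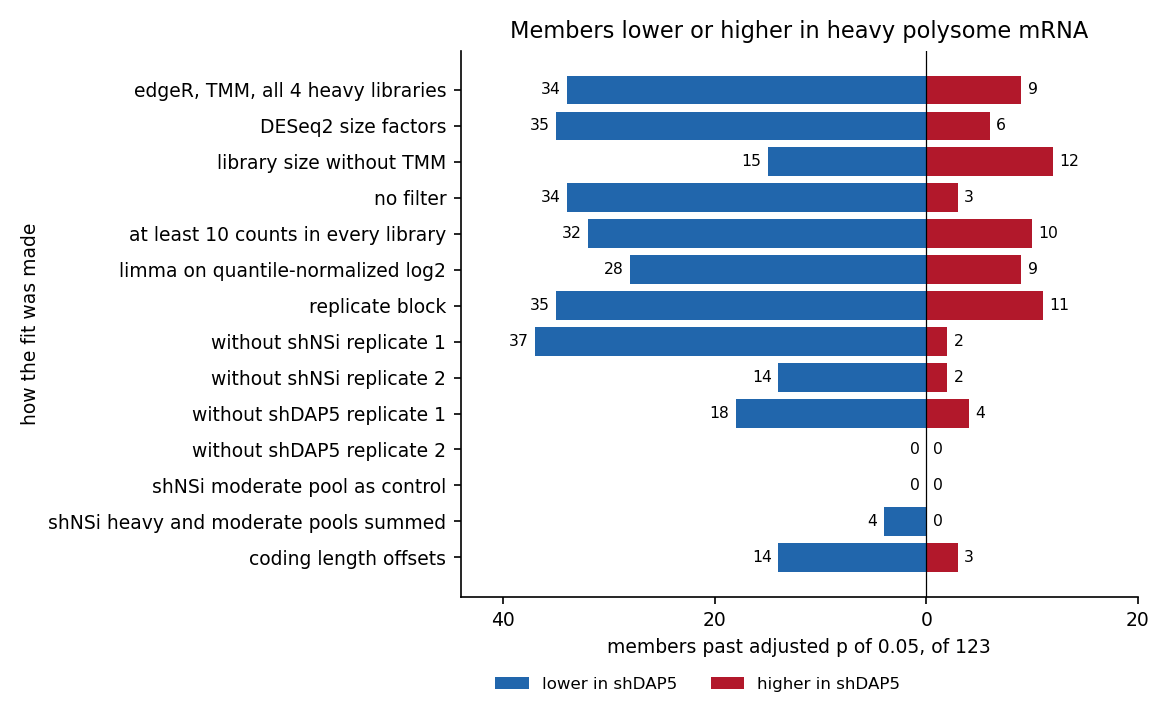
Number of members lower and higher in heavy polysome mRNA of shDAP5 at an adjusted p under 0.05, under each way of making the fit.

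The amino acid transporters had 9 lower of 18, the same share as the inorganic ion carriers and a smaller one than the monocarboxylate family. SLC7A1, which imports arginine and lysine, stood at 391 and 661 CPM in heavy polysomes of shNSi and at 141 and 137 CPM in those of shDAP5. It fell, with a log2 change of −1.73 ± 0.37 (SE, adjusted p = 9.65e-05). SLC7A11, the light chain that exchanges cystine for glutamate, was at 174 and 212 CPM in shNSi and at 45.9 and 56.6 CPM in shDAP5. Both shDAP5 libraries were below both shNSi libraries for each of these genes, and the change of SLC7A11 was −1.72 ± 0.34 (adjusted p = 2.52e-05). SLC3A2, the heavy chain shared by SLC7A5 and SLC7A11, had 713 and 1409 CPM in shNSi against 214 and 430.1 CPM in shDAP5 (−1.52 ± 0.38, adjusted p = 0.00106). SLC1A5, a glutamine carrier, had 569 and 775 CPM against 174 and 275 CPM (−1.39 ± 0.37, adjusted p = 0.00197). SLC38A10, of the sodium-coupled neutral amino acid family, fell with a log2 change of −1.70, and SLC6A6, the taurine transporter, with −1.57. SLC38A1, a glutamine importer, fell with a log2 change of −1.03, from 459 and 496 CPM to 229 and 183 CPM, and SLC38A9, a lysosomal arginine sensor, with −0.86, just under the threshold. Of the 18, edgeR called 11 lower without shNSi replicate 1, 4 without shNSi replicate 2, 4 without shDAP5 replicate 1 and 0 without shDAP5 replicate 2 (9 at an unadjusted p under 0.05). Not past the threshold without shNSi replicate 2 were SLC6A6 (−0.70), SLC3A2 (−0.99), SLC38A1 (−1.01) and SLC38A9 (−0.76), and without shDAP5 replicate 1 SLC1A5 (−1.15), SLC3A2 (−1.18), SLC38A1 (−1.25) and SLC38A9 (−0.99). SLC38A1 also did not pass with library size (−0.77) or limma (−0.72), nor SLC38A9 with library size (−0.61), no filter (−0.95), at least 10 counts in every library (−0.82) or coding length offsets (−0.63).

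SLC7A5 did not pass the test with the usual filter. Its heavy polysome level was 1034 and 1591 CPM in shNSi and 362 and 864 CPM in shDAP5, so the lines were apart, with a change of −0.90 ± 0.38 (adjusted p = 0.0574). Without shNSi replicate 1 it passed, at −1.28 (adjusted p = 0.0162), and it did not without shNSi replicate 2 (−0.60, adjusted p = 0.363), shDAP5 replicate 1 (−0.47, adjusted p = 0.53) or shDAP5 replicate 2 (−1.70, adjusted p = 0.103). With no filter on genes it passed (adjusted p = 0.0404). SLC38A2, a neutral amino acid importer that adapts to amino acid supply, had 252 and 263 CPM against 207 and 128 CPM (−0.44 ± 0.35, adjusted p = 0.339). SLC43A3 belongs to the same families by number but carries nucleobases. It fell with a log2 change of −1.18 but did not pass without shNSi replicate 2 (−0.88, adjusted p = 0.102), shDAP5 replicate 1 (−0.90, adjusted p = 0.183) or shDAP5 replicate 2 (−1.66, adjusted p = 0.1) or with library size (−0.96, adjusted p = 0.0534), and 55.4% of the 50-base stretches of its transcript also occur in transcripts of other genes.

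**Figure D3:**
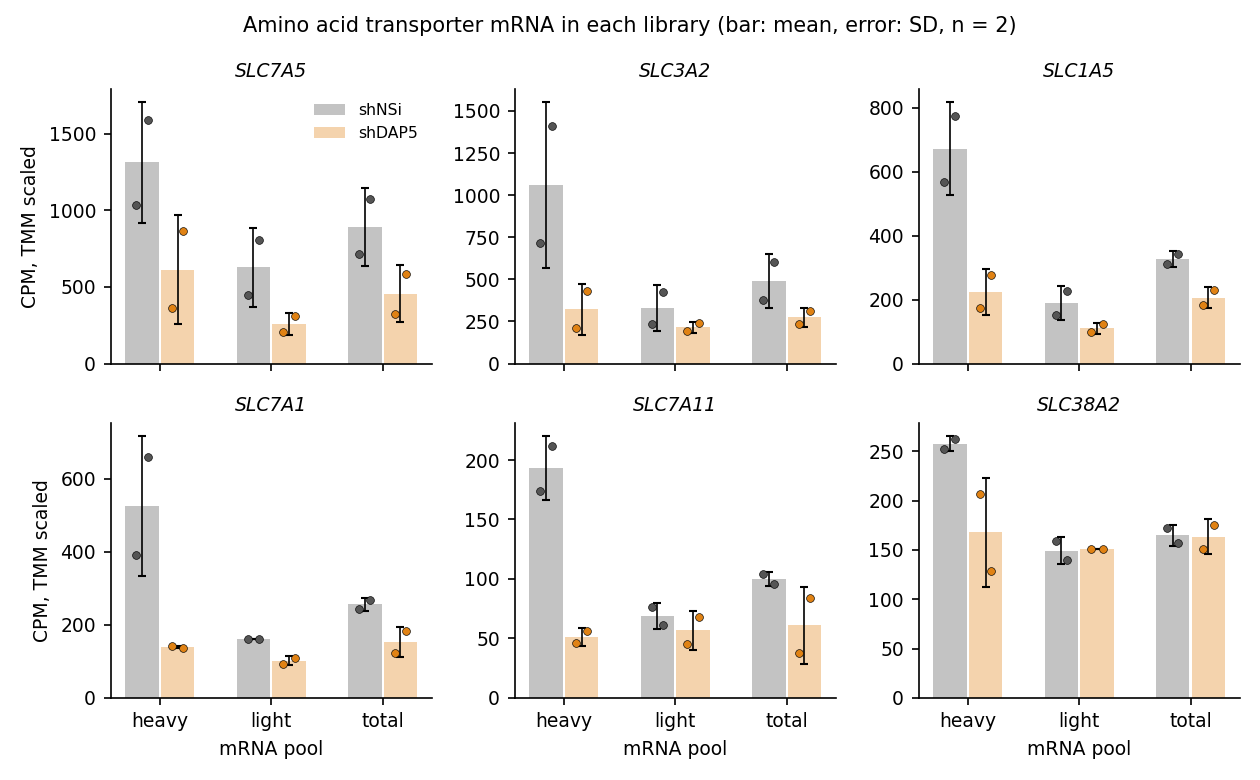
CPM of 6 amino acid transporters in each heavy, light and total library, with the mean and SD of the 2 cultures.

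Because 9 of these 18 members fell, the region around the transcription starts of the 18 was searched for TGATGNAA on both strands, the core of elements through which amino acid shortage acts on transcription. Each window ran from 250 bases before to 50 after a RefSeq start. Since the motif was chosen after the values were seen, its share among the 18 is a description and no test. The motif was in 1270 of 35116 windows of all genes (3.62%), and in 5 of 28 windows of the amino acid transporters (17.9%), of which 15 of 18 matched a window. Over all members it was in 7 of 149 windows (4.7%) and outside the amino acid transporters in 2 of 121 (1.65%), and as a check over the members this is void, since 98 of 123 matched, fewer than 4 of 5. A match is a description and no evidence of binding. The other 2 were in SLC25A11, which rose in heavy polysomes, and SLC39A11. Of the 5 amino acid transporters with the motif, SLC1A3 did not pass, with 11.5 and 20.4 CPM in shNSi heavy polysomes against 9.86 and 6.71 CPM (−0.75 ± 0.36, adjusted p = 0.0955). The sequences of all 5 are shown 5′ to 3′ in the direction of the gene, with the motif in capitals, from GRCh38.p14 at chr13:29595664-29595691 on the minus strand (SLC7A1), chr11:62881726-62881748 on the plus strand (SLC3A2, where the capitals are the motif's other strand), chr12:46266503-46266530 on the minus strand (SLC38A1), chr19:46784894-46784921 on the minus strand (SLC1A5, by an inner start of 3 annotated) and chr5:36596358-36596385 on the plus strand (SLC1A3).
SLC7A1: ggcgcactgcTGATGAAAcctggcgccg
SLC3A2: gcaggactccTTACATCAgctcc
SLC38A1: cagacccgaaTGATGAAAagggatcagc
SLC1A5: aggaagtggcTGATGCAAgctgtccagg
SLC1A3: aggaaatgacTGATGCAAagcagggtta

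Among carriers of ions and osmolytes, SLC5A3, which imports myo-inositol, had the lowest change of all members. It was at 29.1 and 43 CPM in shNSi heavy polysomes and at 13.3 and 4.51 CPM in shDAP5, a log2 change of −1.83 ± 0.36 (adjusted p = 4.95e-05). Its total mRNA was nearly level, with 13.1 and 13.4 CPM in shNSi and 14.2 and 11.6 CPM in shDAP5. SLC26A2, a sulfate transporter, had 64.6 and 56.4 CPM against 16 and 16.6 CPM (−1.71 ± 0.34, adjusted p = 3.12e-05). In heavy polysomes both shDAP5 libraries were below both shNSi libraries for SLC5A3 and for SLC26A2. The potassium and chloride cotransporters SLC12A4 and SLC12A7 fell with a log2 change of −1.30 and −1.07, and the bicarbonate cotransporter SLC4A7 with −1.34. Without shNSi replicate 2 SLC12A4 was −0.83 (adjusted p = 0.141) and SLC12A7 −0.43 (adjusted p = 0.503), and without shNSi replicate 1 SLC4A7 was −0.98 (adjusted p = 0.0613). With library size SLC12A7 (−0.80) and SLC4A7 (−1.07) did not pass, nor did SLC12A7 with limma (−0.95). The phosphate importer SLC20A1 did not pass, at 329 and 478 CPM against 336 and 302 CPM, and its change of −0.15 became 0.11 when scaled by library size. Without shDAP5 replicate 2 edgeR called 0 of the 14 inorganic ion carriers (6 at an unadjusted p under 0.05), and without shNSi replicate 2 it called 3. SLC5A3 was −1.28 (adjusted p = 0.116) without shDAP5 replicate 2 and 0.06 with the moderate pool as control.

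Carriers of sugars, monocarboxylates and nucleosides were mixed. SLC2A3, a glucose transporter, fell with a log2 change of −0.88, from 64.5 and 70.7 CPM to 31 and 33.4 CPM, and 24.1% of its 50-base stretches are shared with other transcripts. SLC50A1, a sugar transporter of the secretory pathway, rose by 0.82, from 20.5 and 22.1 CPM to 31.1 and 34.9 CPM (adjusted p = 0.0492). The lactate exporter SLC16A3 had 358 and 522 CPM against 248 and 434 CPM, and its change of −0.17 became 0.05 when scaled by library size. In the same family SLC16A7, a pyruvate carrier just above the floor, fell with a log2 change of −1.11. The nucleoside transporters of the plasma membrane moved apart. SLC29A1 fell from 161 and 251 CPM to 62.7 and 106 CPM (−1.09 ± 0.34, adjusted p = 0.00842), and SLC29A2 rose from 17.4 and 14.4 CPM to 27.5 and 26.5 CPM (0.95 ± 0.34, adjusted p = 0.024). SLC29A3, their lysosomal relative, had 8.91 and 14.7 CPM against 10.1 and 12.4 CPM. The vitamin carriers SLC5A6, for biotin and pantothenate, and SLC23A2, for ascorbate, fell with a log2 change of −1.22 and −1.09, while the riboflavin carrier SLC52A2 was at 0.08 with TMM and at 0.00 with DESeq2. SLC33A1, which brings acetyl-CoA into the endoplasmic reticulum, fell with a log2 change of −0.93, and 23.9% of its 50-base stretches are shared with other transcripts. The fatty acid transporter SLC27A4 had −0.20, which became 0.03 with library size, and the choline transporter relative SLC44A2 had −0.15, which became 0.07. SLC35A4, of the nucleotide sugar family, and SLC31A1, the copper importer, did not pass, with 107 and 139 CPM against 123 and 135 CPM and 66.3 and 66.1 CPM against 79.6 and 73.6 CPM. SLC22A23 rose by 1.11, from 6.95 and 11.4 CPM to 18.6 and 16 CPM. Without shDAP5 replicate 2 edgeR called none of these genes, with adjusted p of 0.158 for SLC2A3, 0.143 for SLC23A2, 0.102 for SLC29A1, 0.163 for SLC29A2 and 0.137 for SLC22A23, and without shNSi replicate 2 SLC29A1 was −0.78 (adjusted p = 0.147) and SLC29A2 0.78 (adjusted p = 0.204). Without shDAP5 replicate 1 these were −0.82 (adjusted p = 0.215) and 0.88 (adjusted p = 0.116), with SLC22A23 at 0.94 (adjusted p = 0.112), and without shNSi replicate 1 SLC29A2 was 0.99 (adjusted p = 0.078) and SLC22A23 0.70 (adjusted p = 0.244). SLC50A1 and SLC33A1 passed with none of the 4 heavy libraries left out, at 0.67 to 0.85 and −1.02 to −0.94. SLC23A2 did not pass without shNSi replicate 2 (−0.80) or shDAP5 replicate 1 (−1.16), nor SLC2A3 without these (−0.86 and −0.88). SLC5A6 did not pass without shNSi replicate 2 (−0.71), shDAP5 replicate 1 (−0.94) or shDAP5 replicate 2 (−1.71) or with library size (−0.99), and SLC16A7 did not without shDAP5 replicate 2 (−0.92) or with library size (−0.85). With library size SLC29A1 (−0.87), SLC23A2 (−0.83), SLC2A3 (−0.64) and SLC33A1 (−0.68) did not pass either, nor did SLC29A1 with limma (−0.91). SLC50A1 did not pass with DESeq2 (0.74) or no filter (0.73), nor SLC29A2 with no filter (0.86).

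Zinc transporters held both a large fall and the largest rise among the members. SLC39A10, a zinc importer of the plasma membrane, had 43.2 and 53.9 CPM in shNSi heavy polysomes and 15 and 12.6 CPM in shDAP5 (−1.63 ± 0.34, adjusted p = 7.58e-05). Its total mRNA overlapped between the lines. SLC39A14, which also carries manganese and iron, had 187 and 200.5 CPM against 61.2 and 62.8 CPM (−1.46 ± 0.34, adjusted p = 0.000331), and SLC39A6 fell with a log2 change of −1.21. SLC39A4, the intestinal zinc importer, had 13.3 and 13.2 CPM in shNSi and 21.9 and 42.3 CPM in shDAP5, a rise of 1.46 ± 0.35 (adjusted p = 0.000474). In light polysomes SLC39A4 had 50.9 and 52 CPM in shNSi and 48.8 and 36 CPM in shDAP5. SLC39A1, another zinc importer, had 134 and 213 CPM against 129.7 and 197 CPM in heavy polysomes, with 71.3% of its 50-base stretches shared with other transcripts. The exporter SLC30A1 had 26.5 and 54.5 CPM against 39.4 and 30.7 CPM, and its change of −0.02 became 0.25 with library size. SLC30A6, of the same SLC30 family, fell from 40.6 and 53.2 CPM to 16.6 and 20.6 CPM (−1.14 ± 0.33, adjusted p = 0.005). Without shNSi replicate 2 it was −0.98 (adjusted p = 0.078) and without shDAP5 replicate 1 −1.05 (adjusted p = 0.0729). Without shDAP5 replicate 2 SLC39A4 was 0.88 (adjusted p = 0.183) and SLC39A10 −1.54 (adjusted p = 0.0985), and edgeR called 0 of the 16 zinc transporters (6 at an unadjusted p under 0.05). With the moderate pool as control SLC39A4 was 0.03 and SLC39A10 −0.17.

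Mitochondrial carriers lay on both sides. The 5 members with calcium-binding domains, SLC25A12, SLC25A13, SLC25A23, SLC25A24 and SLC25A25, had a median of −0.88 with 3 lower, and the other 27 had a median of 0.52 with 5 higher and 4 below 0. SLC25A23 went against the rest of the 5, with 48.7 and 62.1 CPM in shNSi and 86.8 and 72.9 CPM in shDAP5, and did not pass (0.71 ± 0.33, adjusted p = 0.0828), though it did with library size (0.97) and limma (0.83). The coding lengths of the 5 run from 1431 to 2034 nucleotides and those of the 27 from 822 to 1254, so that structure and length cannot be told apart. SLC25A24, which exchanges ATP-magnesium for phosphate, had 421 and 304 CPM in shNSi and 172 and 118 CPM in shDAP5 (−1.15 ± 0.35, adjusted p = 0.00814). SLC25A13 and SLC25A12, the aspartate and glutamate exchangers, fell with a log2 change of −1.12 and −0.88. SLC25A24 did not pass with library size (−0.89) or limma (−0.82), nor SLC25A12 with library size (−0.62), without shNSi replicate 2 (−0.71) or without shDAP5 replicate 1 (−1.07). SLC25A1, which exports citrate, had 108 and 69.7 CPM in shNSi and 154 and 161 CPM in shDAP5 (1.01 ± 0.33, adjusted p = 0.0134). SLC25A11, the oxoglutarate and malate exchanger, had 94.2 and 94.5 CPM against 128 and 196 CPM (0.97 ± 0.33, adjusted p = 0.0185). It did not pass with no filter (0.88). Its change was 0.87 without shNSi replicate 1, 0.93 without shNSi replicate 2, 1.19 without shDAP5 replicate 1 and 0.59 without shDAP5 replicate 2. SLC25A14, an uncoupling protein relative, rose by 1.00, SLC25A4, the adenine nucleotide carrier of muscle and heart, by 0.88, and SLC25A28, an iron importer, by 0.84. Without shDAP5 replicate 2 SLC25A28 was 0.29 (adjusted p = 0.635), and neither it nor SLC25A14 passed with DESeq2 (0.76 and 0.92), limma (0.77 and 0.73) or no filter (0.75 and 0.91). SLC25A4 did not pass with no filter (0.80) or with any of the 4 heavy libraries left out (0.77 to 0.91). With offsets for coding length in each library edgeR called 0 of the 32 higher and 1 lower (8 at an unadjusted p under 0.05), with SLC25A1 at 0.65 (adjusted p = 0.108), SLC25A11 at 0.58, SLC25A14 at 0.74, SLC25A4 at 0.46 and SLC25A28 at 0.60. The lower one was SLC25A24 (−1.05, adjusted p = 0.0266), while SLC25A13 (−0.73) and SLC25A12 (−0.49) did not pass. SLC25A42, a coenzyme A carrier just above the floor, had 7.23 and 7.77 CPM against 11.2 and 12.1 CPM and did not pass (0.82 ± 0.37, adjusted p = 0.0742). It did pass in edgeR with library size (1.06, adjusted p = 0.0397) and with a replicate block (0.82, adjusted p = 0.0482). The most abundant carriers did not pass either. SLC25A5 had 1420 and 937 CPM against 1206 and 1777 CPM (0.52 ± 0.38, adjusted p = 0.292), and SLC25A3 had 2060 and 1556 CPM against 1273 and 1688 CPM, a change of −0.10 that became 0.12 with library size. Of the 32 carriers edgeR called 1 higher without shNSi replicate 1, 0 without shNSi replicate 2 (10 at an unadjusted p under 0.05 in either direction), 2 without shDAP5 replicate 1 and 0 without shDAP5 replicate 2 (6), and 0 were lower without shDAP5 replicate 2. With the moderate pool as control the median of the 32 was −0.14 and that of the calcium-binding 5 was 0.29.

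In light polysomes, which carry mRNAs with few ribosomes, edgeR called 0 of the 123 members lower and 0 higher, as for all 15529 genes tested (0%). At an unadjusted p under 0.05 there were 12 of the 123 members, beside 810 of the 9495 genes at the same floor. Of the 12, 6 were in amino acid transporter families. DESeq2 and limma also called 0 members, although DESeq2 called 76 genes lower and 29 higher of all tested. SLC7A5 had the lowest change, at 447 and 809 CPM in shNSi and 207 and 309.6 CPM in shDAP5 (−1.29 ± 0.39, adjusted p = 0.499). SLC39A1 was next, at 177 and 281 CPM against 108 and 111 CPM (−1.07 ± 0.32, adjusted p = 0.499). SLC30A1 had the highest change, at 8.9 and 22.5 CPM against 28.5 and 29 CPM (0.87 ± 0.40, adjusted p = 0.587). The median over members was −0.22, beside −0.01 over all genes. Without shNSi replicate 1 there were 43 members lower and 7 higher, beside 16.3% and 12.6% of all genes tested, and without shNSi replicate 2 there were 5 and 2 (3.05% and 1.77%). With the moderate pool as control there were 25 and 12 (13% and 12.6%).

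Heavy translation efficiency is the ratio of heavy polysome to total mRNA. Its denominator is the measure on which the floor was set, alike in both lines. Light translation efficiency has the same denominator, so the calls among the members by either measure are given as a description. By heavy translation efficiency 7 members were lower (8.23% of 15374 genes tested) and 2 higher (4.85%). Of the 9495 genes at the same floor 1141 were lower and 647 higher. Among the 7 were SLC5A3, SLC39A10, SLC26A2, SLC6A6, SLC25A24 and SLC25A13, and all 7 were also lower in heavy polysome mRNA. The 2 were SLC39A4 and SLC25A11, both also higher in heavy polysome mRNA. SLC5A3 had the lowest value, −1.98 ± 0.38 (adjusted p = 0.0057), and SLC39A4 the highest, 1.28 ± 0.36 (adjusted p = 0.018). For SLC7A5 it was −0.05 and for EIF4G2 0.26, neither past the threshold. SLC7A1 and SLC7A11 were both at −0.95, with adjusted p of 0.0621 and 0.0574. The median over members was −0.07 with TMM and 0.14 with library size, and 0.09 over all genes tested with TMM. DESeq2 called 13 lower (9.99% of all genes tested) and limma 2 (1.09%). With a replicate block edgeR called 0 of the 123 members (17 at an unadjusted p under 0.05), as for all 15374 genes tested (0%). It also called 0 members and 0% of all genes with library size (26 members unadjusted) and with no term for each culture (20). Without shNSi replicate 1 there were 2 lower and 0 higher (3.47% and 0.126% of all genes tested), and without shNSi replicate 2 edgeR called 0 and 0 (5 unadjusted). Without shDAP5 replicate 1 there were 21 and 13 (15.5% and 13% of all genes tested), and without shDAP5 replicate 2 there were 1 and 0 (0.245% and 0.0251%). Light translation efficiency had 0 of 123 members lower and 0 higher by edgeR, DESeq2 and limma (0% of 15967 genes, and 6 members at an unadjusted p under 0.05 by edgeR, beside 594 of the 9495 genes at the same floor), but 13 lower and 7 higher without shNSi replicate 1, beside 7.51% and 4.82% of all genes tested.

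The position of the members along the gradient was read within each culture as the log2 ratio of heavy to light CPM, with no test. The shDAP5 light libraries carry a sample code that resembles that of the shNSi moderate pool. Whether the ratios of shNSi and shDAP5 compare the same pools is therefore not known. The median of the amino acid transporters was 0.92 and 1.31 in the shNSi cultures and 0.14 and 0.07 in the shDAP5 cultures. For inorganic ion carriers it was 0.74 and 1.23 against 0.10 and −0.05. The calcium-binding mitochondrial carriers had 1.61 and 1.68 against 0.83 and 0.64. The other mitochondrial carriers went the other way, from −0.19 and −0.73 to 0.13 and 0.31. Over all genes tested the medians were 0.26 and 0.04 in shNSi and 0.14 and 0.05 in shDAP5, and over the genes at the same floor 0.60 and 0.27 against 0.34 and 0.22. SLC39A4 had −1.89 and −1.94 in the shNSi cultures and −1.14 and 0.23 in the shDAP5 cultures. SLC5A3 had 1.57 and 2.79 against 0.32 and −0.90. Within the shNSi cultures, the moderate pool lay below the heavy pool for amino acid transporters, with a median log2 ratio of −0.83 and −0.79, and for the calcium-binding mitochondrial carriers, with −1.71 and −1.08. It lay above the heavy pool for the other mitochondrial carriers, with 0.59 and 0.38.

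**Figure D4:**
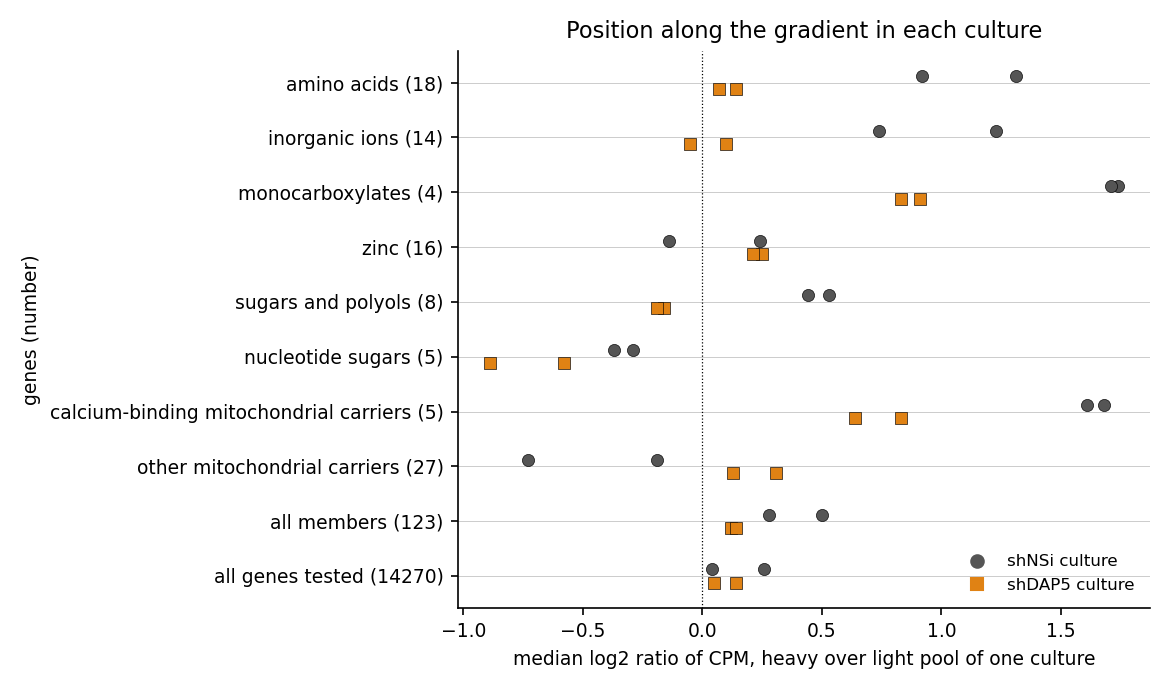
Median log2 ratio of heavy to light polysome CPM in each culture, for members by role and for all genes tested. The shDAP5 light libraries carry a code that resembles that of the shNSi moderate pool, so the pools compared may differ between the lines.

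The members also differed in coding length, from 429 to 3777 nucleotides. Across genes, which are not independent replicates, the rank correlation of coding length with the heavy polysome change was −0.62 over the 123 members and −0.65 over 12133 genes tested. Over the 91 members outside the mitochondria it was −0.44. The lower members had a median coding length of 1839 nucleotides and the higher members one of 1059. In the shortest 41 members, up to 1263 nucleotides, none were lower and 6 higher, with a median of 0.47, beside 0.55 for all genes of that length, of which 2.63% were lower and 27.9% higher. In the 41 from 1272 to 1623 nucleotides, 13 were lower and 1 higher, with a median of −0.54, beside −0.13 for all genes in that range (13.9% lower and 5.44% higher). In the longest 41, 21 were lower and 2 higher, with a median of −0.86, beside −0.60 for all genes as long (36.8% lower and 2.36% higher). SLC39A4 (1941 nucleotides) and SLC22A23 (2082) were the 2 higher members among the longest. With offsets for coding length in each library, 14 members were lower and 3 higher, where 6.71% of all genes tested were lower and 5.73% higher, and all 14 were among the 34 and the 3 among the 9. Of the amino acid transporters 5 passed with these offsets, SLC7A1, SLC7A11, SLC1A5, SLC38A1 and SLC43A3. Those that did not pass included SLC3A2 at −1.17 (adjusted p = 0.0683), SLC6A6 at −1.12 (adjusted p = 0.0699) and SLC38A10 at −0.90 (adjusted p = 0.0867). Nor did SLC12A4 at −0.55, SLC12A7 at −0.33, SLC5A6 at −0.86, SLC4A7 at −0.64, SLC39A6 at −0.72, SLC2A3 at −0.77, SLC23A2 at −0.72, SLC33A1 at −0.71 and SLC50A1 at 0.14. The 3 higher were SLC39A4, SLC22A23 and SLC29A2. How far length and the role of a carrier each took part was not tested.

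**Figure D5:**
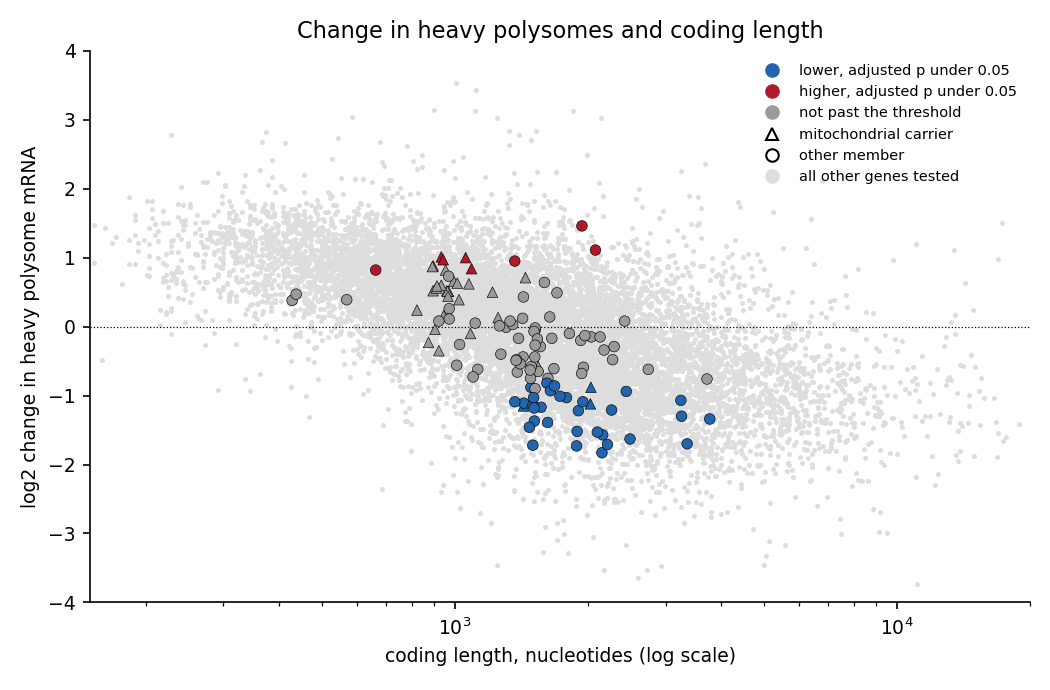
Log2 change in heavy polysome mRNA against coding length, with mitochondrial carriers as triangles and the other genes tested in grey; 19 genes lie outside the axes.

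Other transport genes were described from ABC transporters by symbol, and from fixed lists of P-type ATPases and partner proteins that were chosen by hand and do not cover their classes. Of 14 ABC transporters 8 were lower in heavy polysome mRNA and none higher (median −0.97), and of 10 P-type ATPases and subunits, a lipid flippase among them, 9 were lower and none higher (median −1.22), where 16.7% of all genes tested were lower. Their median coding lengths were 3141 and 3328.5 nucleotides, and 36.8% of all genes from 1626 nucleotides up were lower. With offsets for coding length 2 ABC transporters and 5 ATPases were lower. Of 5 partners and volume channels 2 were lower, LRRC8C, from 52.9 and 51.9 CPM to 20.3 and 24.9 CPM (−1.03 ± 0.33, adjusted p = 0.0117), and LRRC8E, from 25.7 and 45.7 CPM to 11.1 and 16.1 CPM (−1.20 ± 0.34, adjusted p = 0.00408). BSG, a chaperone of the lactate carriers, had 1086 and 1370 CPM against 540.2 and 901 CPM and did not pass (−0.58 ± 0.38, adjusted p = 0.236). Without shDAP5 replicate 2 edgeR called 0 of these lists (4 ABC transporters, 8 ATPases and 3 partners at an unadjusted p under 0.05), and without shNSi replicate 2 it called 3 ABC transporters, 4 ATPases and 1 partner. Of the partners it called 0 lower without shDAP5 replicate 1 and with coding length offsets (2 unadjusted in each).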

How the data were processed

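The authors deposited whole-number counts by gene symbol for every library, and the tests here start from each such count. The submitters' notes on processing name STAR 2.6.0a, limma and the hg19 genome. The name of the deposited count table holds that of featureCounts and the letters rev, whose meaning is not given. The version of that tool, the annotation and the strand setting are not stated in the sources used here. Whether reads of a gene were kept apart from those of its antisense transcripts is therefore not known, and counts of near-identical copies are uncertain. Under R 4.3.3, edgeR 4.0.16 filtered genes (filterByExpr), scaled libraries (TMM) and gave quasi-likelihood tests, with p adjusted over all genes tested and a threshold of 0.05. Heavy and light translation efficiency were tested as the interaction of line and pool, with a term for each culture. The same fits were run with DESeq2 1.42.0 size factors, library size, no filter, at least 10 counts in every library and limma 3.58.1 on quantile-normalized values. They were also run with a replicate block, each culture left out, and the shNSi moderate pool as control or added to the heavy pool. In the translation efficiency fits a culture was left out with both its polysome and its total mRNA library. Python 3.11.15 with pandas 2.3.3 and scipy 1.17.1 made the remaining values, and the code was tested on simulated data. Levels use a prior of 0.5 CPM before log2 in descriptions.

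The members and lists were chosen with earlier results of these data known. Genes named by rule were a fixed list of known carriers, the 6 lowest and 6 highest called members with the lines apart, the genes nearest the floor, and the member of each role with the highest level per kilobase in total mRNA. The other genes named were chosen after their values were seen. Roles follow the family number, so that SLC43A3 and SLC5A6 are counted with families whose usual cargo differs from theirs. Coding lengths came from GENCODE v29 by symbol. Promoter windows came from RefSeq on GRCh38.p14, and the motif was chosen after the values were seen.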

Additional observations from a re-analysis of the deposited data

Results flagged for a closer look

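SLC39A4 differed between the heavy and the light pool. Its log2 change was 1.46 in heavy polysome mRNA, where both shDAP5 cultures were above both shNSi cultures, and −0.28 in light polysome mRNA, where both shDAP5 cultures were below both shNSi cultures. The difference between the pools was not tested.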

How the results depend on the processing

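Scaling by library size alone gave 15 members lower and 12 higher in heavy polysome mRNA and 0 lower and 0 higher in heavy translation efficiency (edgeR, 26 at an unadjusted p under 0.05), with medians of 0.14 in heavy and 0.09 in light translation efficiency, and the heavy polysome change reversed in SLC16A3 0.05, SLC20A1 0.11, SLC25A3 0.12, SLC27A4 0.03, SLC30A1 0.25 and SLC44A2 0.07. DESeq2 gave 13 members lower in heavy translation efficiency and a median of −0.14, with SLC52A2 at 0.00. With limma the counts there were 2 lower and 0 higher with a median of 0.01, and the reversed heavy changes were SLC16A3 0.09, SLC20A1 0.19, SLC25A3 0.03, SLC30A1 0.10 and SLC44A2 0.05. With no filter 3 members were higher in heavy polysome mRNA (5.35% of all genes tested), with SLC52A2 at −0.01. In that fit 1 member was lower in light polysome mRNA (0.689%) and 1 higher in heavy translation efficiency (2.1%). With at least 10 counts in every library the median of heavy translation efficiency was −0.02 and SLC30A1 was 0.02. With a replicate block, with no term for each culture and with the pairing of cultures crossed between the lines, heavy translation efficiency had 0 members lower and 0 higher (17, 20 and 22 at an unadjusted p under 0.05). In each of these fits 0% of all genes tested were called. SLC30A1 was 0.05 with the replicate block in heavy polysome mRNA. Cultures of the same number deviated from their lines with a correlation across 16235 genes of 0.06 in heavy and 0.05 in light polysome mRNA, −0.31 in heavy and 0.02 in light translation efficiency, and the genes are not independent replicates. With the shNSi moderate pool as control, heavy polysome mRNA had 0 members lower and 0 higher, beside 0.165% and 0.179% of all genes tested. Light polysome mRNA had 25 and 12 (13% and 12.6% of all genes tested) with a median of −0.58. Heavy translation efficiency had 0 and 0 (0% and 0%) with a median of −0.12. Light translation efficiency had 21 and 16 (13.8% and 13.8%) with a median of −0.19. Reversed under that control were SLC2A8 −0.27, SLC5A3 0.06, SLC20A1 0.11, SLC25A5 −0.10, SLC25A11 −0.38, SLC25A42 −0.01, SLC29A3 −0.31, SLC30A1 0.46, SLC31A1 −0.11, SLC39A1 −0.94, SLC50A1 −0.11, SLC52A2 −0.56, SLC6A6 0.03, SLC25A24 0.15, SLC25A13 0.47, SLC25A12 0.29, SLC25A4 −0.31, SLC2A3 0.20, SLC12A7 0.40 and SLC1A3 0.49 in heavy polysome mRNA and SLC25A11 −0.34, SLC25A13 0.64, SLC25A24 0.24, SLC39A10 0.02, SLC39A4 −0.10 and SLC6A6 0.47 in heavy translation efficiency. With the heavy and moderate pools summed, 4 members were lower and 0 higher in heavy polysome mRNA, beside 2.22% and 0.553% of all genes tested. SLC29A3 −0.13, SLC30A1 0.22, SLC39A1 −0.55 and SLC52A2 −0.30 were reversed there. Heavy translation efficiency with these pools had 0 and 0 (0% and 0%). Coding length offsets and crossed pairing were added after seeing the data. The offsets gave 14 lower and 3 higher in heavy polysome mRNA (6.71% and 5.73% of all genes tested). In heavy translation efficiency they gave 2 and 1 (1.71% and 1.46%), and the median in light translation efficiency was 0.09. Reversed in heavy polysome mRNA were SLC20A1 0.25, SLC27A4 0.17, SLC30A1 0.10, SLC31A1 −0.38, SLC35A4 −0.10, SLC39A1 −0.27 and SLC44A2 0.30. Leaving out each library in turn, where the lone library is assumed to vary like the other group, gave ranges of 0 to 37 members lower and 0 to 4 higher in heavy polysome mRNA, 0 to 43 and 0 to 7 in light polysome mRNA, 0 to 21 and 0 to 13 in heavy translation efficiency and 0 to 13 and 0 to 7 in light translation efficiency, whose median ran from 0.02 to 0.11. Heavy changes that crossed 0 there had ranges of SLC2A8 −0.04 to 0.89, SLC16A3 −0.67 to 0.11, SLC20A1 −0.49 to 0.10, SLC25A3 −0.36 to 0.04, SLC27A4 −0.66 to 0.13, SLC29A3 −0.29 to 0.49, SLC30A1 −0.55 to 0.54, SLC35A4 −0.01 to 0.42, SLC39A1 −0.29 to 0.44, SLC44A2 −0.50 to 0.05 and SLC52A2 −0.49 to 0.42. Of the values compared with an alternative, 715 were the same by direction and threshold or, for counts and medians, within their bounds, 294 kept their direction but no longer passed, 7 kept it and came to pass, 70 reversed and 110 counts or medians moved, and the cause was not tested. Counts were fewest for the genes nearest the floor, such as SLC29A3 with a lowest total count of 202, and how far depth limits them was not tested.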
